A study of Mus musculus with 6 samples.

Results

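The connexin genes Gja1, Gja3, Gja4, Gja5, Gjb2, Gjb5 and Gjc1 were taken by symbol from RNA-seq of cardiac progenitor (CP) cells, and all 7 were among the 25701 genes of the deposited table. The CP cells were derived from 46C, a mouse embryonic stem cell (ESC) line that carries a green fluorescent protein reporter at the neural gene Sox1, so both groups share that reporter. The control group, 46C-Ctrl, had 3 libraries of polyA RNA with the genotype given as control, and the other group had 3 libraries labelled Zhx1-KO, described in the study as derived from ESCs that lost Zhx1, a zinc finger and homeobox gene, through CRISPR/Cas9. Differentiation used BMP4, activin A and VEGF and then FGF factors. The number of knockout clones is not stated in the study's text, and its general remark on repeated independent experiments does not say which cultures the libraries came from. The p-values here therefore speak only of differences among these libraries, part of which may be technical.

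Connexins are membrane proteins that span the membrane several times and assemble into rings, the hemichannels. Hemichannels of neighbouring cells dock to form gap junctions, which pass ions and small metabolites. In heart muscle they couple cells electrically, and each tissue uses its own mixture. Gja1 (Cx43) is the main connexin of working ventricular muscle, Gja5 (Cx40) of atria, conduction system and arterial endothelium, and Gjc1 (Cx45) of the early heart tube and the nodes. Gja4 (Cx37) belongs to endothelium and oocytes, Gja3 (Cx46) to the lens, Gjb2 (Cx26) to epithelia such as liver and cochlea, and Gjb5 (Cx31.1) to skin and placenta.

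Values are normalized counts, meaning that the reads counted for a gene were scaled by a single factor in each library. The libraries held between 13769967 and 15940874 counted reads, as recovered from the values. For Zhx1-KO replicates 1 and 2 that recovery could not be checked, and the read numbers below carry this limit. A gene was tested with limma on log2(value + 1) if its mean over the 6 libraries was at least 10, and was called at an adjusted p under 0.05 after Benjamini-Hochberg adjustment over all 15372 genes tested. Zhx1 itself was listed at 460, 181 and 457 in 46C-Ctrl and at 225, 325 and 308 in the Zhx1-KO-labelled libraries, with a log2 fold change of -0.25 (limma adjusted p = 0.579). The groups overlapped, and these values do not show a loss of Zhx1 transcript in the libraries labelled Zhx1-KO. Every direction given here therefore rests on the labels. Without 46C-Ctrl replicate 2, which holds the lowest of these values, that adjusted p from limma was 0.0121. The study reported the loss of Zhx1 in its ESC line by PCR, mRNA and protein. The study's methods give guide RNAs aimed at the start and at the stop site of Zhx1 transcription. Values per gene do not tell which part of Zhx1 the reads came from. Replicate 2 of 46C-Ctrl stood apart from its group, with 2.77% of its values in mitochondrial genes against 1.72% to 1.87% in the other 5 libraries and a chi-square per gene of 17.3 and 18.7 against the other control libraries, which differed from each other by 5.88. Without it, the counts of called connexins given below were the same, 2 higher and 2 lower.

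The stretch of 250 bases before the RefSeq start is shown for Gja1 and Gjb2, which were lower, for Gja4, which was higher, and for Gjb5 near it on chromosome 4, which did not pass the test. They are given 5′ to 3′ on the strand of the gene, in GRCm38. Capitals mark matches on either strand to 6 motifs that were searched. The core promoter motifs were TATAAA, where the general machinery is positioned, and GGGCGG, the box bound by Sp factors. The motif TGANTCA is bound by AP-1, the dimer of Fos and Jun proteins. Those of cardiac regulators were GGTGTG, the core read by the T-box family, then TNAAGTG, the element preferred by Nkx homeodomain proteins, and finally AGATAA, a common form of the site for zinc finger factors such as Gata4. No matches overlapped in these 4 stretches.
Gja1: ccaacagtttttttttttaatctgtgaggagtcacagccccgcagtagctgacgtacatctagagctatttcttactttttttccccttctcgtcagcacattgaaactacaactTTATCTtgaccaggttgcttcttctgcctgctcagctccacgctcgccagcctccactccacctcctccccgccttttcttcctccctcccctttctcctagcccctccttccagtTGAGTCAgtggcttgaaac
Gjb2: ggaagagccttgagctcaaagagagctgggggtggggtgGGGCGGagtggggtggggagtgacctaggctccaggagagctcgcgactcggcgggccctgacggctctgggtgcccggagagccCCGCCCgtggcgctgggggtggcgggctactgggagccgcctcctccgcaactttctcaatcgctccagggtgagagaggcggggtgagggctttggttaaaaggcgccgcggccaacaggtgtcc
Gja4: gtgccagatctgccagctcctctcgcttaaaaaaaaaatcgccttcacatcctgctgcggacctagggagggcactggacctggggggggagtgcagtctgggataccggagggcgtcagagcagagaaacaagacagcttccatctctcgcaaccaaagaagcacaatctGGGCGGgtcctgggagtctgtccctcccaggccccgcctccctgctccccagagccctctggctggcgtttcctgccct
Gjb5: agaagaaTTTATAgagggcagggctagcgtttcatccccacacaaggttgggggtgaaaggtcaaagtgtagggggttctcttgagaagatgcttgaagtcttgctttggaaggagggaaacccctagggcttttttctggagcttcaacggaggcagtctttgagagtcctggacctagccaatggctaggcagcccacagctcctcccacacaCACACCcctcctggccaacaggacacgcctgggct

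These stretches are chr10:56377050-56377299 (plus strand) for Gja1, chr14:57104703-57104952 (minus) for Gjb2, chr4:127314040-127314289 (minus) for Gja4 and chr4:127358165-127358414 (minus) for Gjb5. Gja1 held 1 AP-1 motif and 1 Gata site, Gjb2 held 2 GC boxes, Gja4 held 1 GC box, and Gjb5 held 1 TATAAA match and 1 T-box core. That TATAAA match reads on the other strand and lies at the end of the stretch far from the RefSeq start. Over the same window of all 32851 RefSeq promoters in the table, 12.4% held the TATA box, 32.7% the GC box, 6.75% the AP-1 motif, 16.3% the T-box core, 10.1% the Nkx element and 9.99% the Gata site. The GC content was 69.2% before Gjb2, 61.2% before Gja4, 54.4% before Gjb5 and 50% before Gja1, against a median of 52.4% over all promoters. These matches describe letters only, and no binding was measured here. RefSeq promoters were matched for 6 of the 7 members. The stretch before Gja5 held 1 GC box, and that of Gjc1 is not shown.

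Gja1 was by far the most abundant member and was lower in the Zhx1-KO-labelled libraries. It lies at chr10:56377330-56402513 and was listed at 8236, 8631 and 8132 in 46C-Ctrl and at 5685, 5467 and 5644 in the Zhx1-KO-labelled libraries. Every control library was above every library labelled Zhx1-KO. The means were 8333 ± 263 and 5598 ± 116 (SD, n = 3 each), a ratio of 0.672. The log2 fold change was -0.57 (SE 0.04, 95% interval -0.68 to -0.47, limma adjusted p = 3.5e-05).

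Gjb2, the epithelial connexin, fell the most of the members that were called. It lies at chr14:57098600-57104702 and was listed at 237, 212 and 267 in 46C-Ctrl and at 13.1, 14.2 and 32.6 in the Zhx1-KO-labelled libraries. The groups lay far apart, and the highest value labelled Zhx1-KO, in replicate 3, rested on 37 reads. The means were 239 ± 27.3 and 19.9 ± 10.9 (SD, n = 3 each), 12-fold lower in the Zhx1-KO-labelled libraries. The log2 fold change was -3.63 (SE 0.34, 95% interval -4.41 to -2.84, limma adjusted p = 8.8e-05).

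Gja4, the endothelial connexin, was higher in the Zhx1-KO-labelled libraries, at a low level. It lies at chr4:127311421-127314039 and was listed at 10.7, 13.5 and 9.49 in 46C-Ctrl and at 30.2, 25.3 and 27.3 in the Zhx1-KO-labelled libraries. The groups did not overlap, although each control value rested on 9 to 13 reads. The means were 11.2 ± 2.03 and 27.6 ± 2.49 (SD, n = 3 each), a ratio of 2.46. The log2 fold change was 1.24 (SE 0.31, 95% interval 0.51 to 1.96, limma adjusted p = 0.0123), on a scale that understates the change of low genes.

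Gjc1, the connexin of the early heart tube, was slightly higher in the Zhx1-KO-labelled libraries. It lies at chr11:102799579-102819700 and was listed at 751, 566 and 709 in 46C-Ctrl and at 861, 833 and 931 in the Zhx1-KO-labelled libraries. The groups did not overlap, and the lowest value was that of 46C-Ctrl replicate 2. The means were 675 ± 96.7 and 875 ± 50.5 (SD, n = 3 each), a ratio of 1.3. The log2 fold change was 0.38 (SE 0.11, 95% interval 0.13 to 0.64, limma adjusted p = 0.0211). This call was lost without Zhx1-KO replicate 3 (log2 fold change 0.34, limma adjusted p = 0.0727) and in limma without a mean trend (adjusted p = 0.0541).

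Gjb5, the skin and placenta connexin, lies at chr4:127354809-127358181 and was listed at 138, 88.0 and 129 in 46C-Ctrl and at 94.7, 103 and 110 in the Zhx1-KO-labelled libraries. The groups overlapped, because 46C-Ctrl replicate 2 was below every other library. The log2 fold change was -0.18 (SE 0.20, 95% interval -0.64 to 0.28, limma adjusted p = 0.478). Without that library it was -0.38, with a limma adjusted p of 0.0836. The interval leaves room for changes in either direction.

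Gja5, the connexin of atria and conduction tissue, was near the lower limit of the test in both groups. It lies at chr3:96904693-97077416 and was listed at 7.80, 12.4 and 11.6 in 46C-Ctrl and at 8.06, 8.09 and 12.3 in the Zhx1-KO-labelled libraries. The groups overlapped, and each value rested on 8 to 14 reads. The log2 fold change was -0.15 (SE 0.42, 95% interval -1.12 to 0.83, limma adjusted p = 0.794), so no change was detected, and the interval leaves room for one in either direction. Gpr89 overlaps the span of Gja5 on the other strand in GENCODE, and the value of Gja5 is uncertain if reads of the overlap were counted without strand. Mapping and FPKM values were set for stranded reads per the study's methods, which do not describe the counts used here.

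Gja3, the lens connexin, had a mean under 10 and was not tested. It lies at chr14:57034460-57058100 and was listed at 8.78, 16.6 and 20 in 46C-Ctrl and at 0, 6.07 and 7.04 in the Zhx1-KO-labelled libraries. Every control value was above every value labelled Zhx1-KO, from 44 reads in the control libraries and 14 in the others. With no filter on low values its log2 fold change was -2.0 (95% interval -3.86 to -0.13, limma adjusted p = 0.102), which did not pass, while 31.7% of all genes did in that fit.

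**Figure D1:**
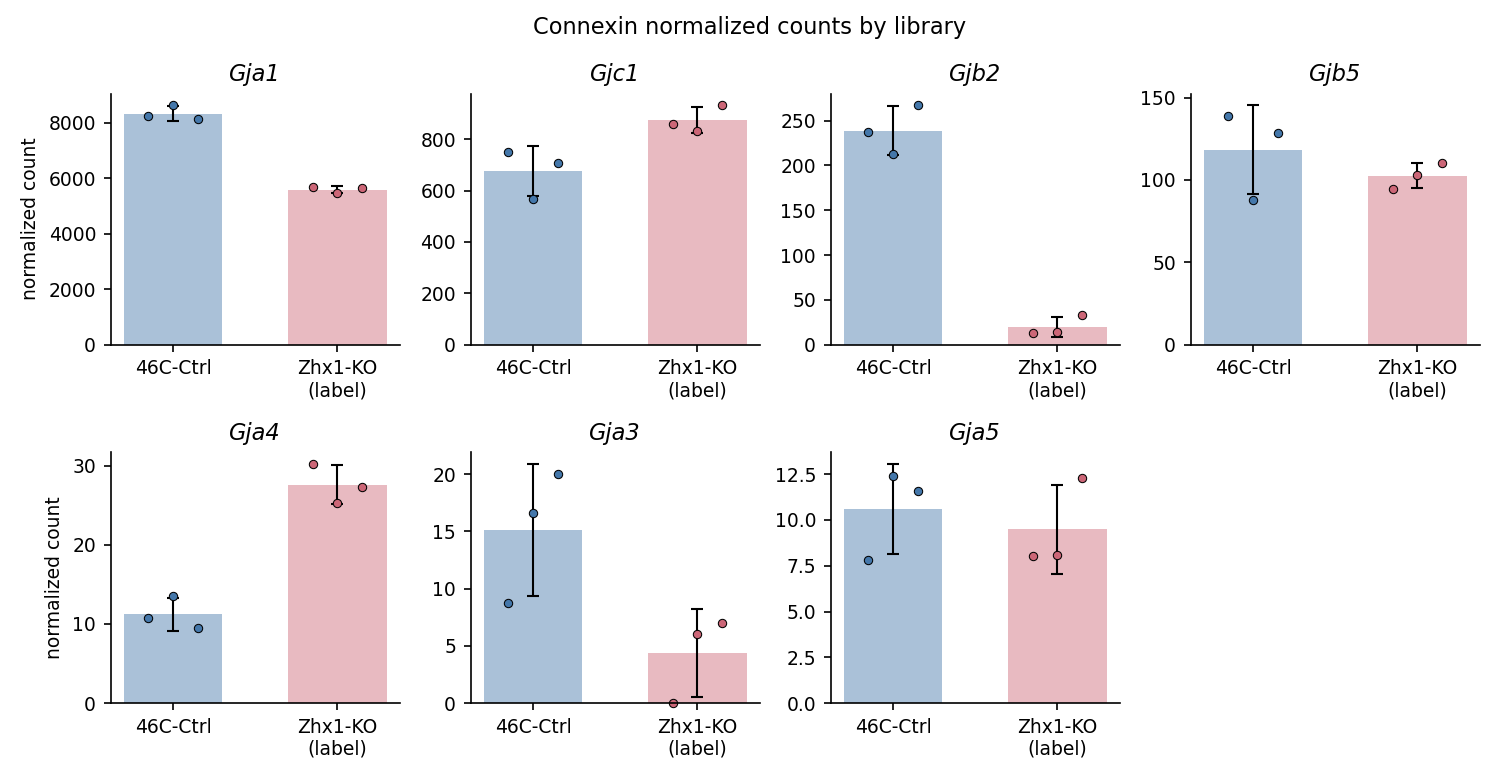
Normalized counts of the 7 members in each library, each panel with its own linear axis from 0. Bars are group means, error bars are SDs (n = 3) and points are libraries. The groups of Gja1, Gjb2, Gja3, Gja4 and Gjc1 do not overlap, and those of Gjb5 and Gja5 do.

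Of the 6 members tested, 2 were higher (Gja4 and Gjc1), 2 were lower (Gja1 and Gjb2) and 2 did not pass (Gja5 and Gjb5). Of all genes tested, 25.6% were higher and 26.4% lower, 52.0% in all, so the share of members called was near that of any gene. The groups did not overlap for 4 of the 6, beside 60.8% of all genes tested. The median log2 fold change of the tested members was -0.16, against 0.01 over all genes. In the exact two-sided permutation test of each member's values, the p was 0.1 for Gja1, Gja3, Gja4, Gjb2 and Gjc1, which is the smallest that 3 libraries against 3 allow. It was 0.4 for Gjb5 and 0.9 for Gja5 in the same exact permutation test.

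Levels of different genes were compared per kilobase (kb) of the longest principal transcript in GENCODE. In 46C-Ctrl the order of the members was Gja1 (2619 ± 82.7 normalized counts per kb, SD, n = 3), Gjc1 (292 ± 41.8), Gjb2 (99.2 ± 11.4), Gjb5 (68.8 ± 15.6), Gja4 (6.66 ± 1.2), Gja3 (5.47 ± 2.08) and Gja5 (3.41 ± 0.793). Neighbours in this order were separate in all 3 libraries down to Gja4, while Gja4 overlapped with Gja3, and Gja3 with Gja5. In the libraries labelled Zhx1-KO, Gja1 (1759 ± 36.4 per kb) and Gjc1 (378 ± 21.8) kept the top ranks. Gjb5 (59.6 ± 4.45 per kb) and Gja4 (16.4 ± 1.48) then stood above Gjb2 (8.29 ± 4.55), and their libraries did not overlap with those of Gjb2.

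The make-up of the connexin transcripts differed between the groups, as the plot of shares per library shows. Summed over the 18 connexin genes in the table, the level per kb was 3190 ± 29.8 in 46C-Ctrl and 2256 ± 53.6 in the Zhx1-KO-labelled libraries (SD, n = 3 each). Gja1 made up 80.7%, 84.5% and 81.0% of it in the control libraries and 79.1%, 78.1% and 76.9% in the others. Gjc1 made up 10.1%, 7.63% and 9.70% in the control libraries and 16.5%, 16.4% and 17.4% in the others. Within each library, the level of Gjc1 per kb was 0.0902 to 0.125 of that of Gja1 in 46C-Ctrl and 0.208 to 0.227 in the Zhx1-KO-labelled libraries, with no overlap (exact two-sided permutation p = 0.1, the smallest possible). The share of Gjb2 was 3.11% ± 0.384 in 46C-Ctrl and 0.365% ± 0.192 in the Zhx1-KO-labelled libraries. The share of Gja4 was 0.209% ± 0.0363 and 0.726% ± 0.0599 in the same order (SD, n = 3 each). Shares depend on the length used, and with the union of all annotated exons, a choice made after the values were seen, that of Gja1 was 66.6% ± 3.09 and 65.3% ± 1.76.

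**Figure D2:**
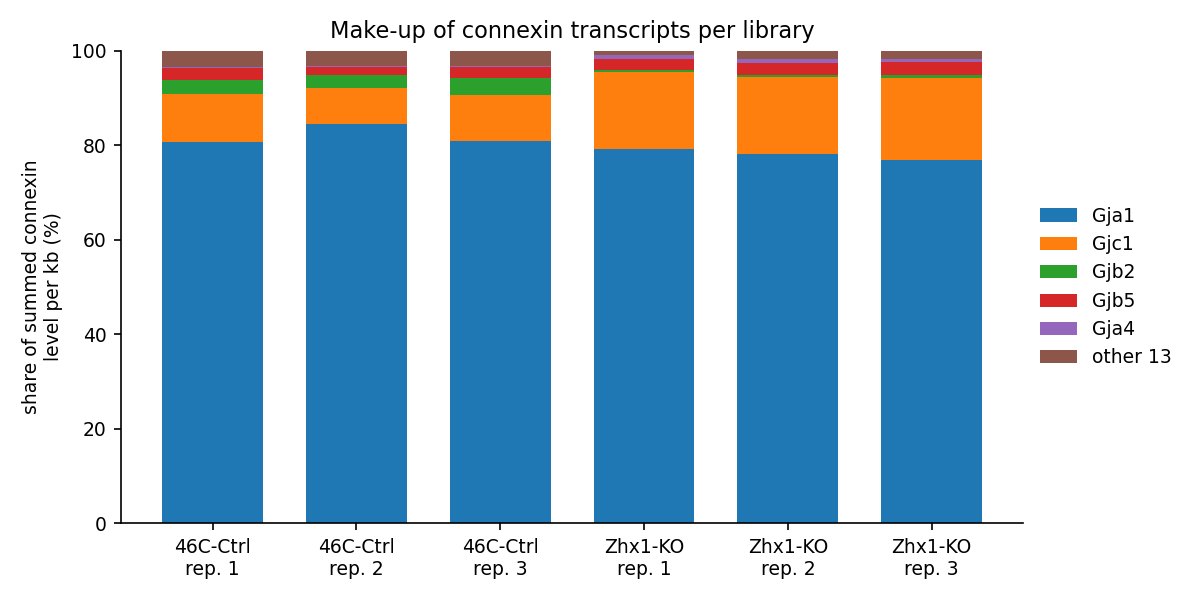
Share of the summed connexin level per kb, in percent, for each library, with 5 genes by colour and the other 13 together. Gja1 takes between 76.9% and 84.5% in every library, and Gjc1 takes a larger share in each library labelled Zhx1-KO (16.4% to 17.4%) than in any control library (7.63% to 10.1%).

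Of the other connexins, Gja6, Gja10, Gjb1, Gjb6, Gjc3, Gjd2 and Gjd3 were below the limit of the test.

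Gja4 and Gjb5 lie 40.8 kb apart on chromosome 4, both on the minus strand, and only Gja4 was called. Within each library, the level of Gja4 per kb was 0.0753 to 0.156 of that of Gjb5 in 46C-Ctrl and 0.25 to 0.326 in the Zhx1-KO-labelled libraries (exact two-sided permutation p = 0.1, the smallest possible). The groups did not overlap in this ratio.

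Gja3, Gjb2 and Gjb6 lie within 99.2 kb of chromosome 14, also all on the minus strand. Gjb2 was lower, Gja3 was listed lower without passing the test, and Gjb6 was listed between 0 and 6.33. The nearest tested genes on either side were both higher, Zmym2 at 71.8 kb (log2 fold change 0.25, limma adjusted p = 0.0156) and Cryl1 at 141 kb (0.78, limma adjusted p = 0.0216).

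**Figure D3:**
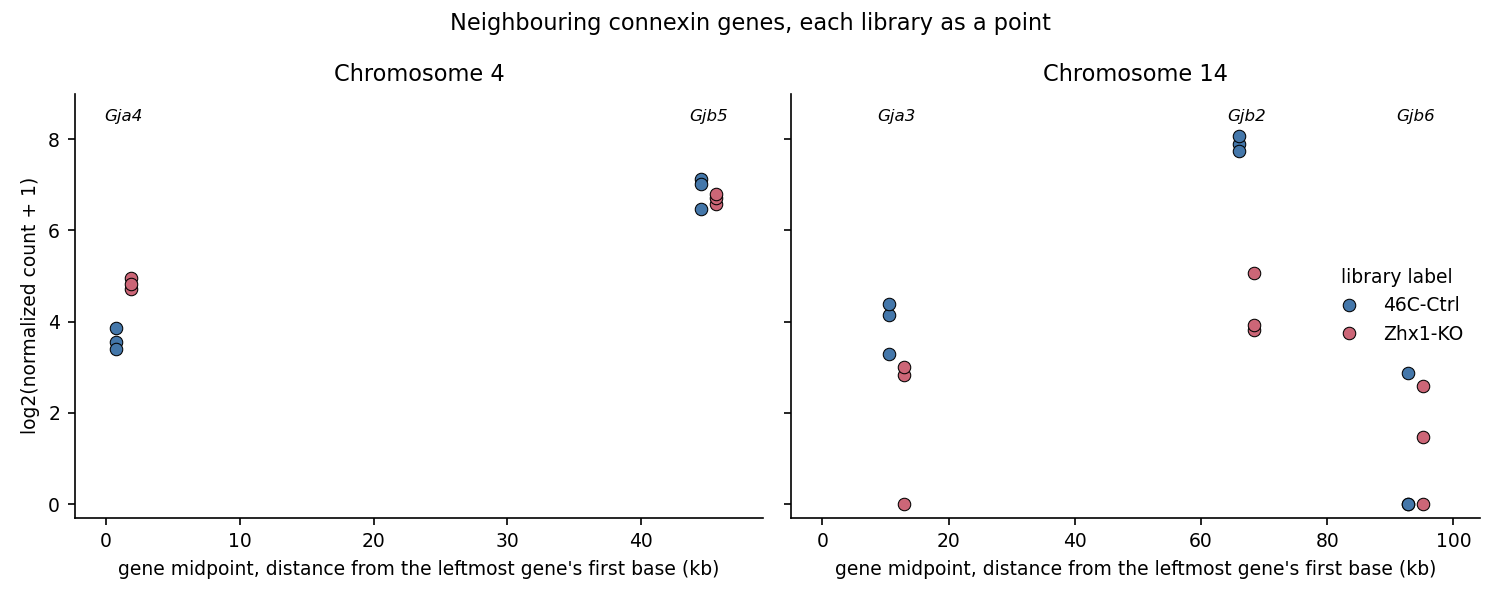
Log2(normalized count + 1) of Gja4 and Gjb5 on chromosome 4 and of Gja3, Gjb2 and Gjb6 on chromosome 14, by the distance of the gene's midpoint in kb from the first base of the gene shown at the left. Points are libraries, set slightly apart by group. Gjb2 lies lower in the Zhx1-KO-labelled libraries and Gja4 higher, while the groups overlap for Gjb5 and Gjb6.

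The rise of Gjc1 was close to the median of its chromosome. Of the other 1186 tested genes of chromosome 11, 674 were higher and 114 lower, and their median log2 fold change was 0.42, which lies 0.04 above the 0.38 of Gjc1. A larger log2 fold change than that of Gjc1 was seen in 628 of them (53.0%). The nearest tested genes, Eftud2 at 18.8 kb (log2 fold change 0.48, limma adjusted p = 8.1e-04) and Adam11 at 19.3 kb (1.79, limma adjusted p = 4.4e-05), were both higher. The part of the chromosome in the value of Gjc1 was not tested. Some genes of the lists below also lie on chromosome 11, among them Myl7, which was higher (1.17), and Hand1, which was lower (-4.87). The part of the chromosome in their values and in the counts of those lists was not tested either. For the other members the chromosome medians were close to 0, at 0.02 for chromosome 3, -0.04 for chromosome 4, -0.01 for chromosome 10 and -0.03 for chromosome 14.

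**Figure D4:**
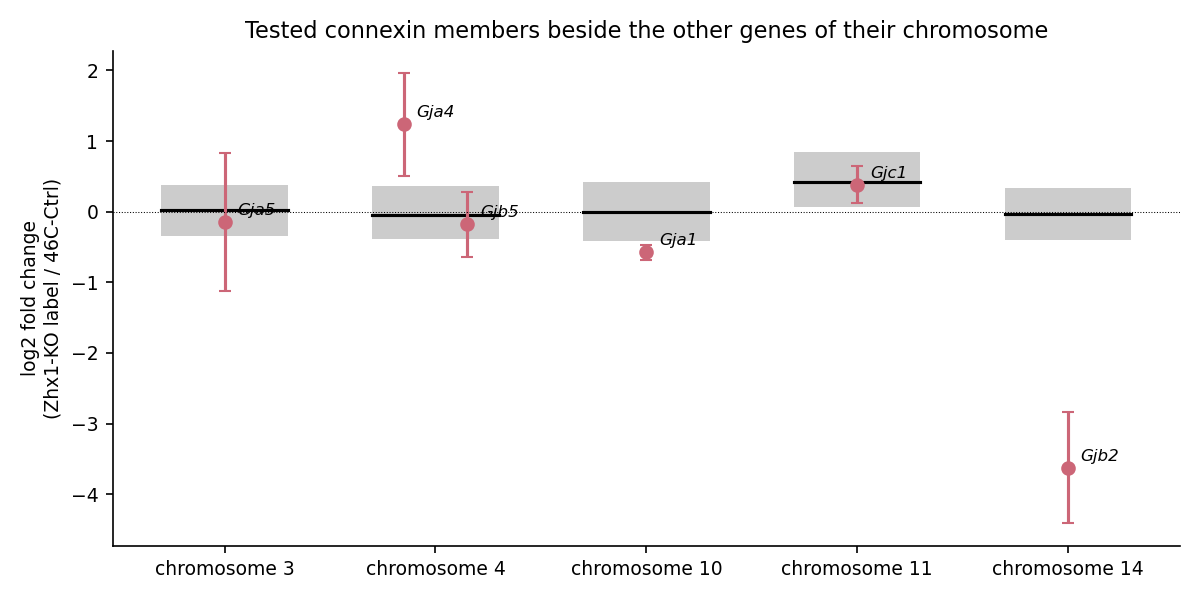
Log2 fold change of the 6 tested members (points, with 95% intervals from limma) beside the other tested genes of their chromosome (grey box from the lower to the upper quartile, black line at the median). Gjc1 (0.38) lies at the median of chromosome 11 (0.42), while Gjb2 (-3.63), Gja1 (-0.57) and Gja4 (1.24) lie outside the boxes of their chromosomes.

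Pannexins are channel proteins with a membrane topology like that of connexins. Panx1 fell from 234, 262 and 236 to 180, 174 and 162 (log2 fold change -0.50, limma adjusted p = 0.00537). Panx2 rose from 47.8, 41.4 and 49.6 to 101, 63.7 and 84.5 (0.81, limma adjusted p = 0.0174). Panx3 was below the limit of the test.

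Of the 16 genes for proteins that bind, move, phosphorylate or degrade connexins, 15 were tested, and 5 were higher, 7 lower and 3 did not pass, beside the 25.6% of all genes that were higher and the 26.4% that were lower. Their median log2 fold change was -0.18. Src, a tyrosine kinase that phosphorylates Cx43, fell from 1563, 1732 and 1785 to 741, 840 and 836 (log2 fold change -1.07, limma adjusted p = 2.6e-05). Akt1, a serine/threonine kinase, fell from 2963, 2713 and 3001 to 1568, 1842 and 1750 (-0.75, limma adjusted p = 1.1e-04). Nedd4, a ubiquitin ligase of Cx43, rose from 27636, 27222 and 27103 to 36037, 36103 and 34948 (0.39, limma adjusted p = 1.7e-04).

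Genes of the intercalated disc, the contact zone where gap junctions of heart muscle lie beside adherens junctions and desmosomes, were mostly lower. Of 12 such genes, 11 were tested, and 8 were lower and 1 higher, while 2 missed the threshold, beside the 26.4% of all genes that were lower. Their median log2 fold change was -1.0. Dsp, the desmosomal linker desmoplakin, fell from 4432, 3673 and 4323 to 930, 1016 and 937 (log2 fold change -2.10, limma adjusted p = 1.5e-06). Pkp2, a desmosomal plaque protein, fell from 2306, 2272 and 2413 to 912, 989 and 996 (-1.27, limma adjusted p = 2.8e-06). Dsg2, a desmosomal cadherin, fell from 1384, 1240 and 1362 to 545, 450 and 510 (-1.41, limma adjusted p = 1.2e-05).

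Transcription factors known to act on connexin genes in heart were mostly lower too. All 12 were tested, and 8 were lower and 3 higher, while 1 missed the threshold, beside the 26.4% of all genes that were lower and the 25.6% that were higher. The median log2 fold change was -2.15. Because the list also holds repressors such as Tbx3, this median gives no direction for the connexin genes. Some of the lower factors, Hand1, Hand2 and Tbx5 among them, are counted again among the CP markers below. Hand1, a factor of early heart and extraembryonic mesoderm, fell from 6036, 5405 and 5881 to 177, 186 and 230 (log2 fold change -4.87, limma adjusted p = 1.5e-07). Tbx3, a T-box repressor of working-muscle genes in the conduction system, fell from 1519, 1340 and 1323 to 82.6, 102 and 81.9 (-3.96, limma adjusted p = 4.3e-07). Tbx20, a T-box factor of the heart, fell from 1487, 1514 and 1420 to 443, 415 and 422 (-1.79, limma adjusted p = 9.2e-07).

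**Figure D5:**
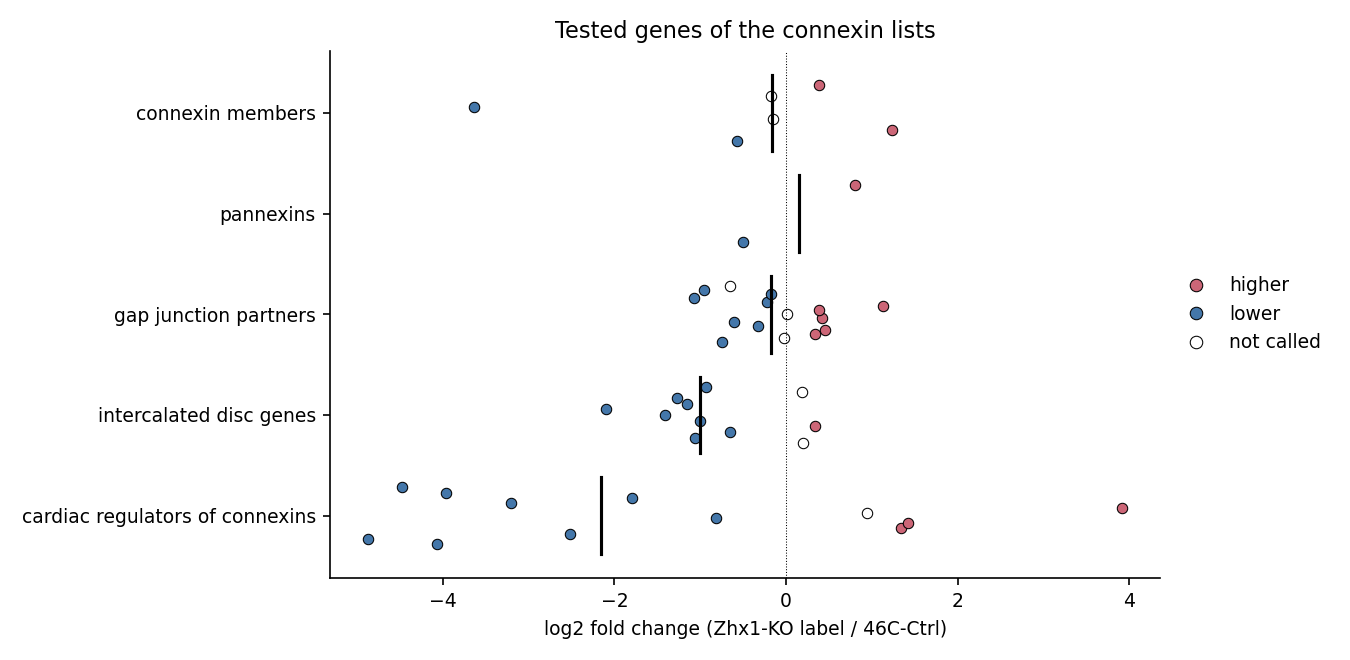
Log2 fold change of each tested gene (points) in the connexin members, the pannexins, the gap junction partners, the intercalated disc genes and the cardiac regulators, with the median of each list of 2 or more as a black line. Colours give the limma call. The intercalated disc genes (median -1.0) and cardiac regulators (-2.15) lie mostly below 0, while the connexin members (-0.16) lie on either side.

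Markers of cell types that use these connexins also differed between the groups, and their part in the connexin values was not tested. In bulk RNA, fewer cells of a type and less RNA per cell cannot be told apart. Beside the higher Gja4, 8 of 10 endothelial markers were higher and 1 lower, while 25.6% of all genes tested were higher and 26.4% lower. The summed level of these markers was 2946 to 3215 in 46C-Ctrl and 4914 to 5290 in the Zhx1-KO-labelled libraries. Cdh5, the cadherin of endothelial junctions, rose from 105, 103 and 91.7 to 874, 966 and 787 (log2 fold change 3.12, limma adjusted p = 1.0e-06), and Kdr, a VEGF receptor, rose by 1.72 on the log2 scale. Flt1, another VEGF receptor, was lower (-2.32). At a mean of 2051 in 46C-Ctrl and 411 in the Zhx1-KO-labelled libraries, Flt1 made up most of the control sum. The sum therefore does not show the full rises of the 8 markers that were higher. Kdr, also named Flk1, served in the study as a mesoderm marker. Of 7 arterial markers, 3 were higher and 4 lower, and their sum went from 16849 to 18436 in 46C-Ctrl down to 5892 to 6497. Among them Hey1, a Notch target, was higher (1.25), while Nrp1 (-3.21), a VEGF co-receptor, and Unc5b (-2.05), a netrin receptor, were lower. Unc5b, at a mean of 9837 in 46C-Ctrl, and Nrp1, at 4097, made up most of the arterial sum there. That sum therefore does not show the rises of the 3 markers that were higher. Gja5, named above for arterial endothelium, was near the lower limit of the test and did not pass (log2 fold change -0.15, limma adjusted p = 0.794).

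Beside the lower Gjb2, 9 of 10 markers of endoderm and simple epithelium were lower and none was higher, while 26.4% of all genes were lower. Their summed level was 50962 to 57036 in 46C-Ctrl and 22733 to 24388 in the Zhx1-KO-labelled libraries. Krt8, a keratin of simple epithelia, fell from 23858, 22720 and 25492 to 6694, 7681 and 7290 (log2 fold change -1.73, limma adjusted p = 1.5e-06). Ttr (-4.98), a carrier protein made by liver and visceral endoderm, and Epcam (-0.61), an epithelial adhesion protein, were lower too. Of 9 markers of trophoblast and extraembryonic ectoderm, 8 were among the genes of the deposited values and 6 were tested. Of these 6, 4 were lower and 2 did not pass, beside the 26.4% of all genes that were lower. The sums over the 8 were 1036 to 1237 in 46C-Ctrl and 503 to 590 in the Zhx1-KO-labelled libraries. Whether trophoblast cells were present was not tested. Cdx2 (-4.21), Gata3 (-0.89) and Tfap2c (-1.60), transcription factors of trophoblast, had the smallest adjusted p of the tested markers. Gjb5, the skin and placenta connexin, did not pass (log2 fold change -0.18, limma adjusted p = 0.478).

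Beside the lower Gja1, markers of heart muscle went both ways. Of 9 tested cardiomyocyte markers, 5 were higher and 3 lower, beside the 25.6% of all genes that were higher and the 26.4% that were lower. Their sums were 7158 to 7951 in 46C-Ctrl and 9136 to 10035 in the Zhx1-KO-labelled libraries. Myl7, an atrial myosin light chain on chromosome 11, rose from 877, 787 and 860 to 1844, 1982 and 1832 (log2 fold change 1.17, limma adjusted p = 7.2e-06). Myh6 (0.92), a myosin heavy chain, was higher too. Tnni1, the slow skeletal troponin I of fetal heart, was lower (-2.02). Of 6 CP markers, which the control libraries expressed at sums of 7770 to 8527, 5 were lower in the Zhx1-KO-labelled libraries, at sums of 1081 to 1159. Hand1, at a mean of 5774 in 46C-Ctrl, made up most of the control sums. Beside Hand1, Hand2 (-2.52) and Tbx5 (-4.48), factors of the early heart, had the smallest adjusted p. Of 6 smooth muscle markers, a cell type that also uses Gja1 and Gjc1, 4 were lower and 1 higher, with sums of 15567 to 16624 and 5365 to 5765. Tagln (-2.54), Acta2 (-1.45) and Cnn1 (-1.54), proteins of the contractile apparatus, had the smallest adjusted p.

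The tested genes whose log2(value + 1) was most like that of Gja1 over the 6 libraries were Serinc3 (Pearson r = 0.9994) and Dcbld2 (r = 0.9994). Serinc3 was listed at 3367 ± 113 in 46C-Ctrl and 2063 ± 43.5 in the Zhx1-KO-labelled libraries, and Dcbld2 at 2265 ± 19.9 and 1915 ± 18.7 (SD, n = 3 each). For Gjb2 they were Anxa5 (r = 0.9998, 1348 ± 32.8 and 830 ± 83.0) and Nme4 (r = 0.9995, 759 ± 18.8 and 486 ± 48.0). These are descriptions over 6 points in 2 groups, and 293 genes for Gja1 and 101 for Gjb2 had an r above 0.99.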

How the data were processed

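The 6 polyA RNA-seq libraries were grouped by label, 3 as 46C-Ctrl and 3 as Zhx1-KO. The authors used cutadapt 1.18 for trimming, HISAT2 2.1.0 for mapping to GRCm38 (annotation GENCODE M19) and StringTie 1.3.4d for FPKM, both with a strand setting. Cufflinks and DESeq2 appear in the submitters' processing notes as well. What the authors deposited, and what was used here, is a signal per gene: read counts scaled by a single factor in each library. How these reads were counted, strand included, is not given in the sources used. Of 25701 genes, those with a mean of at least 10 were tested with limma 3.58.1 (R 4.3.3) on log2(value + 1), with group in the model, a mean-variance trend and Benjamini-Hochberg adjustment. Exact permutation tests used scipy 1.17.1.

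The values of each library are whole multiples of its own step (0.880 to 1.05), within 0.01 of a step in 100% of values. The sums in steps, taken as reads, ran from 13769967 to 15940874. In the libraries labelled Zhx1-KO 1 and 2 the step (1.01 each) is so near 1 that recovery of whole reads could not be checked from the values alone. Count tests on these reads with edgeR 4.0.16 and DESeq2 1.42.0 are therefore given only as alternatives. Read numbers cover counting error only.

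The members and lists were chosen with earlier results of these data known. The lists were other connexins, pannexins, gap junction partners, cardiac regulators, intercalated disc genes and markers of 9 cell types (cardiomyocyte, CP, endothelial, arterial, smooth muscle, endoderm and simple epithelium, trophoblast and extraembryonic ectoderm, neural and pluripotent). Some connexin and neighbouring genes are not reported here. Genes named in the text are all members, up to 3 members per list with the smallest adjusted p, the 2 genes most like Gja1 and Gjb2, and the untested connexins by name. The nearest tested genes beside connexin genes, the gene overlapping Gja5 and the values of Gjd2 were added after the values were seen. Gene positions and transcript lengths are from GENCODE release M21 on GRCm38, and upstream sequences from RefSeq on the same build. The main limma fit and the edgeR and DESeq2 fits were tested on simulated data, and the other settings were not.

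Alternatives covered the pseudocount, the filter, quantile normalization, TMM-like rescaling, a fit without trend, a replicate block, leaving out single libraries, and count tests on whole reads. FPKM values and ChIP-seq data were not analysed here.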

Additional observations from a re-analysis of the deposited data

How the results depend on the processing

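Gja1, Gja4 and Gjb2 were called in the same direction under every alternative that could give a value, and Gja5 and Gjb5 under none. With a minimum mean of 50, Gja4 and Gja5 were not tested. Leaving out each library in turn, the log2 fold change of Gjc1 ran from 0.26 to 0.46, and its limma adjusted p was 0.0727 without Zhx1-KO replicate 3. Limma without trend gave it 0.38 and an adjusted p of 0.0541. The count of members called higher, 2, was 1 with a minimum mean of 50, 1 in limma without trend and 1 to 2 with a library left out. The count called lower was 2 throughout. With no filter, 31.7% of 25701 genes were called. With exon union lengths, added after seeing the data, the Gja1 share was 66.6% in 46C-Ctrl and 65.3% in the Zhx1-KO-labelled libraries. No direction was reversed. The edgeR quasi-likelihood test called 3976 of all genes higher and 3954 lower, and DESeq2 3717 and 3881, against 3940 and 4058 in limma. The same replicate numbers did not deviate together (r of 0.00419, -0.069 and 0.000587), so they were not taken as pairs. With the replicate block, limma called 3625 genes higher and 3749 lower, and all member calls were the same. Depth limits Gja3, Gja4 and Gja5, whose values rest on 0 to 31 reads each. Without 46C-Ctrl replicate 2, an alternative added after seeing the data for the lists, the counts of every list were the same except that 2 in place of 3 cardiomyocyte markers and 3 in place of 4 smooth muscle markers were lower, and 4 in place of 5 neural markers were higher.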

Other observations

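Of the connexins below the limit of the test, Gjd2 (Cx36) is described here after its values were seen. This connexin of neurons and pancreatic beta cells was listed at 23.4, 17.6 and 15.8 in 46C-Ctrl, from 56 reads in all, and at 2.02, 0 and 0 in the Zhx1-KO-labelled libraries, from 2 reads. The groups did not overlap, and with no filter on low values it passed (limma adjusted p = 0.00129). In that fit 31.7% of all genes passed, and 60.8% of the genes tested in the main fit had no overlap between groups. Because Gjd2 was picked for its values, these results are a description and not a test.

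Of 7 tested neural markers, 5 were higher and 1 lower in the Zhx1-KO-labelled libraries, while 25.6% of all genes were higher and 26.4% lower. The summed level of these markers was 2869 to 3280 in 46C-Ctrl and 2785 to 2910 in the others. Nes alone, at a mean of 2804 in 46C-Ctrl and 1652 in the others, made up most of that sum, so the sum does not show the rises of the 5 members that were higher. Sox1 (log2 fold change 3.74), an early neural factor that carries the reporter of the 46C line, and Tubb3 (1.73), a neuronal tubulin, were higher, and Nes (-0.76), an intermediate filament of progenitors, was lower. Of 5 tested pluripotent markers, 3 were lower and 1 higher, with sums of 5727 to 6034 and 3205 to 3350. Pou5f1 (-1.78) and Fgf5 (-2.44) were lower and Sox2 (1.75), a factor of both pluripotent and neural cells, was higher. What these cell markers share with the connexin values was not tested.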
